A study of Saccharomyces cerevisiae with 6 samples.

Results

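Transcript levels of 10 ALG genes of the budding yeast Saccharomyces cerevisiae were examined in 3 strains. These genes encode glycosyltransferases that build the lipid-linked oligosaccharide, the precursor of N-linked glycans, and they were taken by symbol: ALG7, ALG1, ALG2, ALG11, ALG3, ALG9, ALG12, ALG6, ALG8 and DIE2, the last also known as ALG10. They were 10 of 5449 genes with a probe set on the array, each with 1 probe set, and all 10 were among the 4907 genes bright enough to be tested. ALG1, ALG3 and ALG7 lie on chromosome II, and the other 7 lie on chromosomes VII (ALG2 and DIE2), XIV (ALG9, ALG11 and ALG12) and XV (ALG6 and ALG8).

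Biotin-labelled total RNA from cultures in the rich medium YPD, grown at 30 degrees Celsius with shaking at 150 rpm and harvested in log phase at an optical density of 1.0, was hybridised to Affymetrix Yeast Genome 2.0 arrays. The strains were a deletion of EOS1 in BY4741 (eos1 deletion), a deletion of IZH2 in BY4741 (izh2 deletion) and BY4741 itself as the wild type, with 2 arrays per strain from independent experiments. All 3 share the BY4741 background, a haploid laboratory strain of mating type a without functional URA3, MET17, LEU2 and HIS3. The product of EOS1 sits in the endoplasmic reticulum membrane and has been tied to N-glycosylation, that of IZH2 is a membrane protein of zinc metabolism, and the series title names zinc homeostasis as the subject. The labels do not say how the genes were deleted or whether more than 1 clone of a deletion was used.

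N-glycans are assembled on dolichol, a long polyprenol of the endoplasmic reticulum membrane, before they are transferred to proteins. Assembly begins on the cytosolic face of the membrane, where N-acetylglucosamine and then mannose are added. The intermediate is turned over into the lumen and receives further mannose and finally glucose, after which the oligosaccharyltransferase moves the finished glycan to asparagine residues.

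In the eos1 deletion the ALG genes split by chromosome. ALG7, ALG1 and ALG3, all on chromosome II, rose 1.93-fold, 2.09-fold and 2.08-fold over the wild type (2 arrays per strain), log2 changes of 0.95, 1.07 and 1.05 beside a median of 1.03 for all tested genes of that chromosome. Here and below, genes counted as having risen or fallen are those that passed the test at an adjusted p under 0.05 (limma). On chromosome II 58.8% of all tested genes rose, while 96.9% had a log2 fold change above 0 (71.1% off that chromosome). Of the 7 ALG genes on other chromosomes 0 passed the test, where 2.35% of all tested genes off chromosome II rose. In the izh2 deletion 0 of the 10 passed, where 0.0% of all tested genes rose and 0.0204% fell. The enzymes of the genes that rose act at the start of the pathway (ALG7), at the first mannose (ALG1) and at the first luminal mannose (ALG3). ALG2 and ALG11, whose enzymes act between ALG1 and ALG3, did not pass.

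The strains were checked on their deleted genes. EOS1 had signals of 0.42 and 2.70 in the eos1 deletion against 694 and 692 in the wild type, at least 51.6-fold lower. IZH2 had signals of 3.46 and 1.12 in the izh2 deletion against 3543 and 2390 in the wild type, at least 284-fold lower. Array backgrounds, the 95th percentile of probe sets naming a gene outside the S. cerevisiae table, ran from 8.67 to 15.2, and the lowest ALG signal on any array was 321 (ALG2). The median signal of the tested genes was 792 and 660 on the eos1 deletion arrays, 581 and 554 on the izh2 deletion arrays and 644 and 589 on the wild-type arrays. The median gene was thus 0.21 higher in the eos1 deletion than in the wild type on the log2 scale and 0.11 lower in the izh2 deletion, where the log2 fold change of all tested genes had a median of -0.11. Changes are therefore also given relative to the median gene. Genes of mating-type a cells differed between strains as well: the summed signal of 7 a-cell genes was 7283 and 5857 on the eos1 deletion arrays, 17602 and 15236 on the izh2 deletion arrays and 19531 and 18197 on the wild-type arrays. That of 4 alpha-cell genes was 629 and 541 on the eos1 deletion arrays, 331 and 310 on the izh2 deletion arrays and 356 and 319 on the wild-type arrays. Of the a-cell genes 7 of 7 fell in the eos1 deletion against the wild type (limma), where 0.713% of all tested genes fell. Of the alpha-cell genes STE3 had signals of 144 and 121 in the eos1 deletion against 47.2 and 45.3 in the wild type, and SAG1 had 450 and 386 in the eos1 deletion against 268 and 254 in the wild type. SAG1, the 1 alpha-cell gene bright enough to be tested, did not pass over the wild type (limma, adjusted p = 0.099) and was higher in the eos1 deletion than in the izh2 deletion. The alpha-factor pheromone genes were dimmer, MF(ALPHA)2 at 18.3 to 34.4 and MF(ALPHA)1 at 0.91 to 13.3, the last above background on 1 of 6 arrays. STE3 and MF(ALPHA)2 were above background on 6 of 6 arrays but below the cut for testing. The part of these differences in the ALG values was not tested.

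The cytosolic steps were taken first. ALG7 (YBR243C) encodes the transferase that puts the first N-acetylglucosamine on dolichol phosphate and is the target of the antibiotic tunicamycin. Its signals were 2494 and 2267 on the eos1 deletion arrays, 1353 and 977 on the izh2 deletion arrays and 1194 and 1266 on the wild-type arrays. Both eos1 deletion arrays lay above all 4 other arrays, while the izh2 deletion arrays lay on either side of the wild type. ALG7 was 0.95 ± 0.24 higher than in the wild type (log2 units, SE; limma, adjusted p = 0.041) in the eos1 deletion. ALG1 (YBR110W) adds the first mannose. Its signals were 2275 and 1798 on the eos1 deletion arrays, 879 and 803 on the izh2 deletion arrays and 1078 and 865 on the wild-type arrays. The eos1 deletion arrays were again the highest, and the izh2 deletion and wild-type arrays overlapped. The log2 fold change over the wild type was 1.07 ± 0.24 (SE; limma, adjusted p = 0.026).

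ALG2 and ALG11, which add the remaining mannoses on the cytosolic side, lie off chromosome II. ALG2 (YGL065C) had signals of 419 and 455 on the eos1 deletion arrays, 449 and 321 on the izh2 deletion arrays and 431 and 405 on the wild-type arrays. ALG11 (YNL048W) had 1357 and 1154 on the eos1 deletion arrays, 957 and 897 on the izh2 deletion arrays and 1212 and 1004 on the wild-type arrays. For both genes the eos1 deletion and wild-type arrays overlapped, and the log2 fold changes were 0.06 (95% interval -0.44 to 0.56) for ALG2 and 0.18 (-0.33 to 0.70) for ALG11. Of the 4 cytosolic genes ALG7 and ALG1 thus rose, both on chromosome II, where 58.8% of all tested genes rose. ALG2 and ALG11 did not pass, off that chromosome, where 2.35% rose.

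**Figure D1:**
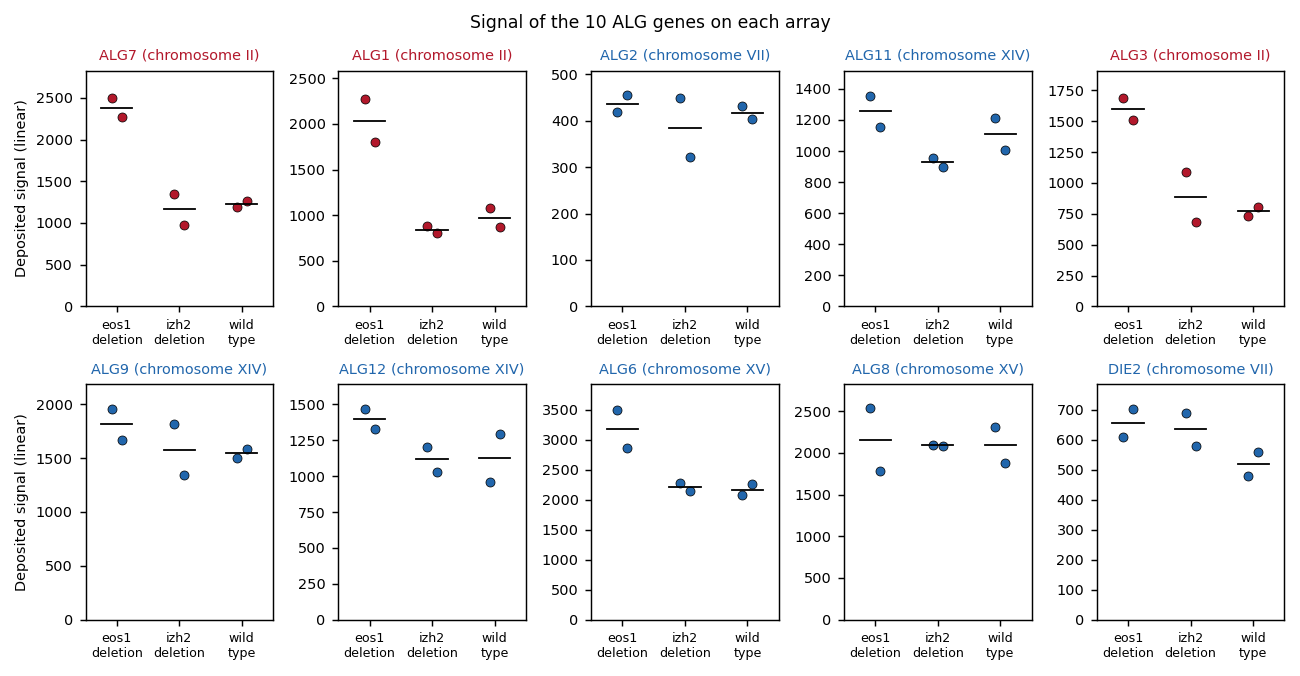
Deposited signal (linear scale, axes from 0) of the 10 ALG genes on each of the 6 arrays, by strain and in pathway order; dots are arrays, bars are strain means (n = 2), red marks genes of chromosome II and blue all others. For ALG7, ALG1 and ALG3 both eos1 deletion arrays lie above the 4 other arrays by a wide gap. Those of ALG6 and ALG12 also lie above the 4 others, for ALG12 by a small margin. Those of ALG2, ALG11, ALG9, ALG8 and DIE2 overlap the arrays of another strain.

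In the lumen ALG3, ALG9 and ALG12 add mannose. ALG3 (YBL082C), which adds the first luminal mannose, had signals of 1687 and 1513 on the eos1 deletion arrays, 1085 and 680 on the izh2 deletion arrays and 734 and 807 on the wild-type arrays. All 4 arrays of the other strains lay below the eos1 deletion arrays. The izh2 deletion arrays were far apart and enclosed the wild type. Against the wild type ALG3 rose by 1.05 ± 0.27 on the log2 scale in the eos1 deletion (SE; limma, adjusted p = 0.041).

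ALG9 (YNL219C) had signals of 1958 and 1671 on the eos1 deletion arrays, 1812 and 1342 on the izh2 deletion arrays and 1499 and 1587 on the wild-type arrays. ALG12 (YNR030W) had 1468 and 1330 on the eos1 deletion arrays, 1205 and 1031 on the izh2 deletion arrays and 963 and 1297 on the wild-type arrays. Both lie on chromosome XIV, the chromosome of EOS1, as does ALG11. Their eos1 deletion arrays lay above the wild-type ones by a small margin, with log2 fold changes of 0.23 (95% interval -0.30 to 0.76) for ALG9 and 0.32 (-0.22 to 0.86) for ALG12 that did not pass (limma, adjusted p = 0.62 and 0.48).

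ALG6, ALG8 and DIE2 add the glucoses that complete the glycan. ALG6 (YOR002W), which adds the first of them, had signals of 3499 and 2855 on the eos1 deletion arrays, 2273 and 2145 on the izh2 deletion arrays and 2076 and 2259 on the wild-type arrays. Both eos1 deletion arrays lay above the 4 others. It stood highest among the 7 ALG genes off chromosome II, with a log2 fold change of 0.55 (95% interval 0.09 to 1.01) that did not pass after adjustment (unadjusted p = 0.025; limma, adjusted p = 0.16). Relative to the median gene its log2 fold change was 0.31 (adjusted p = 0.30).

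ALG8 (YOR067C) had signals of 2531 and 1787 on the eos1 deletion arrays, 2098 and 2081 on the izh2 deletion arrays and 2314 and 1880 on the wild-type arrays. Its eos1 deletion arrays enclosed the wild-type ones, and the log2 fold change was 0.03 (95% interval -0.50 to 0.56). DIE2 (YGR227W), which adds the last glucose, had signals of 607 and 703 on the eos1 deletion arrays, 689 and 578 on the izh2 deletion arrays and 478 and 559 on the wild-type arrays. Both deletions lay above the wild type on both of their arrays, by 0.34 for the eos1 deletion (limma, adjusted p = 0.42) and by 0.29 for the izh2 deletion (adjusted p = 0.998) on the log2 scale, and neither passed. These 2 values share the wild-type arrays.

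Calls were then counted for the eos1 deletion against the wild type. At an adjusted p under 0.05 (limma, Benjamini-Hochberg over 4907 genes), 3 of 10 ALG genes rose and 0 fell, where 6.4% of all tested genes rose and 0.713% fell. By chromosome, 3 of 3 ALG genes on chromosome II and 0 of 7 off it rose, beside 207 of the 352 tested genes of chromosome II (58.8%) and 107 of the 4555 others (2.35%). At an unadjusted p under 0.05 ALG6 was the 1 gene of the 7 that was higher, beside 649 of the 4555 others, a like share. For 7 of 10 ALG genes both eos1 deletion arrays lay above both wild-type arrays, which also held for 41.9% of all tested genes, and for 0 they lay below, against 8.84%. All 10 log2 fold changes were above 0, as were 73.0% over all tested genes. With every array centred on the median gene 6 of 10 were above 0, ALG2, ALG11, ALG9 and ALG8 being below it at -0.17, -0.05, -0.001 and -0.20. Of all tested genes 47.6% were then above 0, and off chromosome II it was 3 of 7 ALG genes (42.9%) beside 44.1% of all tested genes there.

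After this centring ALG1 passed at 0.83 (limma, adjusted p = 0.024), as did 4.22% of all tested genes in the same direction, and 0 of 10 ALG genes fell, against 2.24%. ALG3 at 0.82 (adjusted p = 0.070) and ALG7 at 0.72 (adjusted p = 0.064) did not. The calls also rested on single arrays, and counts over all tested genes moved too when an array was left out. ALG7 passed with no array left out and missed the threshold without any 1 of the 6 (adjusted p from 0.055 to 0.18). ALG1 missed it without the first eos1 deletion array (0.16), the second wild-type array (0.095) or the first or second izh2 deletion array (0.056 and 0.055), which enter only through the shared spread. ALG3 missed it without the first or second eos1 deletion array (0.16 and 0.062) or the first wild-type array (0.072). The log2 fold changes moved less: over these 6 fits they stayed between 0.88 and 1.02 for ALG7, between 0.90 and 1.24 for ALG1 and between 0.97 and 1.13 for ALG3.

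**Figure D2:**
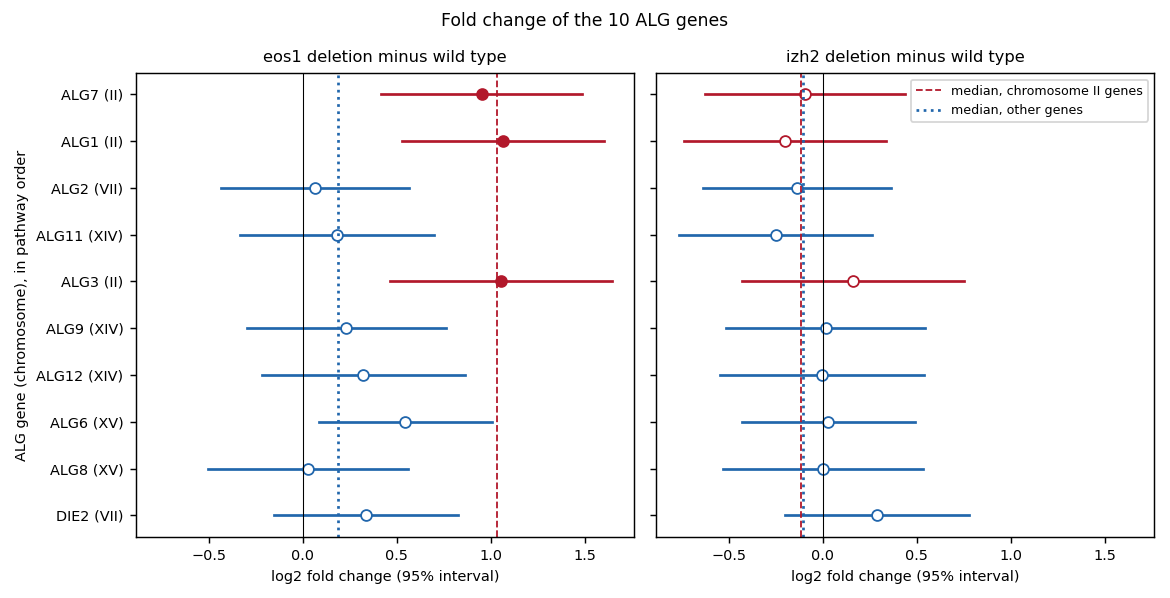
Log2 fold change of each ALG gene with its 95% interval (horizontal axis) for the eos1 deletion minus the wild type (left) and the izh2 deletion minus the wild type (right), genes in pathway order from the top; filled points passed an adjusted p under 0.05, and dashed and dotted lines mark the medians of tested genes on chromosome II and elsewhere. On the left ALG7, ALG1 and ALG3 lie at 0.95, 1.07 and 1.05 beside the chromosome II median of 1.03, and on the right 0 of the 10 points are filled.

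The ALG genes of chromosome II were then set against the other genes of that chromosome, and the other 7 against all tested genes of the remaining chromosomes, pooled. The median log2 fold change in the eos1 deletion was 1.03 for tested chromosome II genes and 0.19 for all others. ALG7 lay 0.08 below the chromosome II median, with 40.7% of the other chromosome II genes under it, ALG3 lay 0.02 above it (51.9%) and ALG1 0.03 above it (53.0%). Off chromosome II the 7 genes lay from 31.6% (ALG8) to 85.2% (ALG6) of the way up that pooled distribution. The 95% intervals of all 7 ended below the chromosome II median, the nearest being that of ALG6 at 1.01. These positions are descriptions without a test.

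In a further fit the genes of chromosome II were centred on their own median and all other genes, pooled over their chromosomes, on theirs. In it 0 of 10 ALG genes passed in either direction, where 0.774% of all tested genes were higher and 1.47% lower. The log2 fold changes against the wild type were then -0.08 for ALG7 (95% interval -0.57 to 0.41), 0.03 for ALG1 (-0.35 to 0.42) and 0.02 for ALG3 (-0.54 to 0.58). These intervals allow a departure of either sign. Because this fit subtracts the chromosome II median, these values near 0 restate the positions given above and are not separate evidence. ALG6 had 0.37 (0.002 to 0.74; adjusted p = 0.29), the highest of the 10.

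**Figure D3:**
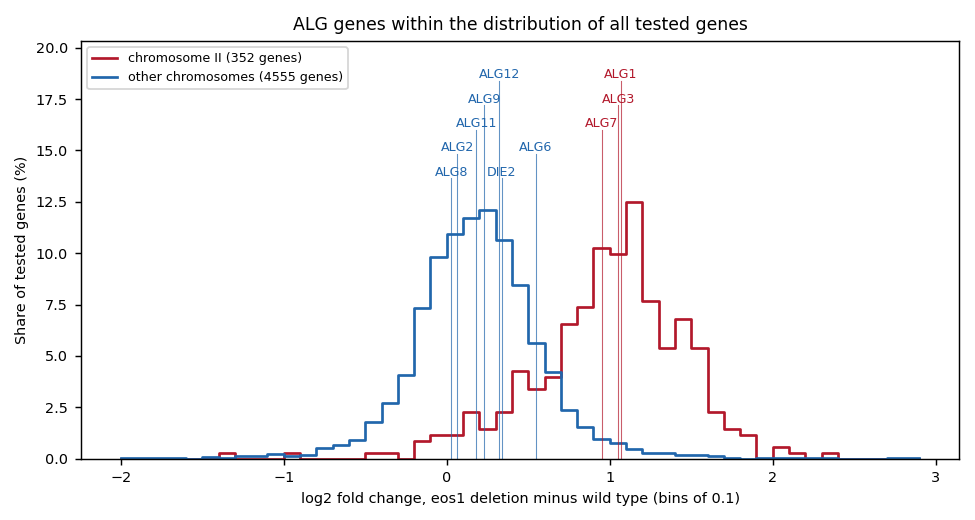
Share of tested genes (vertical axis, %) by log2 fold change of the eos1 deletion minus the wild type (horizontal axis, bins of 0.1; 8 genes lie outside the plotted range), for 352 genes of chromosome II (red) and 4555 other genes (blue), with the ALG genes marked by lines whose heights carry no value. ALG7, ALG3 and ALG1 stand in the middle of the chromosome II distribution and the other 7 within that of the other genes.

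The difference between the medians of the 3 and the 7 ALG genes was taken on every array against the wild-type mean. The eos1 deletion arrays had 0.83 and 0.77, the izh2 deletion arrays 0.04 and -0.15, and the wild-type arrays -0.001 and 0.001. Wild-type values here mirror each other by construction, since both arrays are taken against their own mean. Over all tested genes on and off chromosome II the same difference was 0.85 and 0.84 for the eos1 deletion, -0.02 and -0.01 for the izh2 deletion and 0.002 and -0.002 for the wild type. Among the ALG genes of chromosome II the log2 values ran from 1.02 to 1.24 on the first eos1 deletion array and from 0.88 to 0.97 on the second, with no overlap with the other 7, which ran from 0.004 to 0.69 and from -0.22 to 0.44. On the izh2 deletion arrays both sets overlapped. Over all tested genes the log2 fold changes of the eos1 deletion against the wild type did overlap between the chromosomes. They ran from -1.35 to 3.56 on chromosome II and from -8.72 (the deleted EOS1) to 2.91 off it.

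The genes beside each ALG gene were examined next. ALG3 lies on the left arm of chromosome II, and ALG1 and ALG7 on the right arm. CDC27, which encodes a subunit of the anaphase-promoting complex, and YBL081W are the nearest tested neighbours of ALG3, and both rose in the eos1 deletion, by 1.40 and 0.94 on the log2 scale (limma, adjusted p = 0.0041 and 0.028). The neighbours of ALG1, the calmodulin gene CMD1 and YSA1, had 0.59 and 0.47, and those of ALG7, YBR242W and the glutathione peroxidase gene GPX2, had 0.54 and 0.67, and these 4 did not pass. Over the 10 tested genes on each side, 12 of 20 passed around ALG3 (median 1.00), 9 of 20 around ALG1 (median 1.01) and 9 of 20 around ALG7 (median 0.96). Over all of chromosome II 58.8% of the tested genes rose and 0.284% fell. Around the 7 other ALG genes 0 to 2 of 20 passed, and the medians ran from 0.11 (ALG9) to 0.34 (ALG8). Off chromosome II 2.35% of all tested genes rose and 0.746% fell. The 2 around DIE2 went opposite ways, RTA1 higher (1.94) and YHB1 lower (-1.49).

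**Figure D4:**
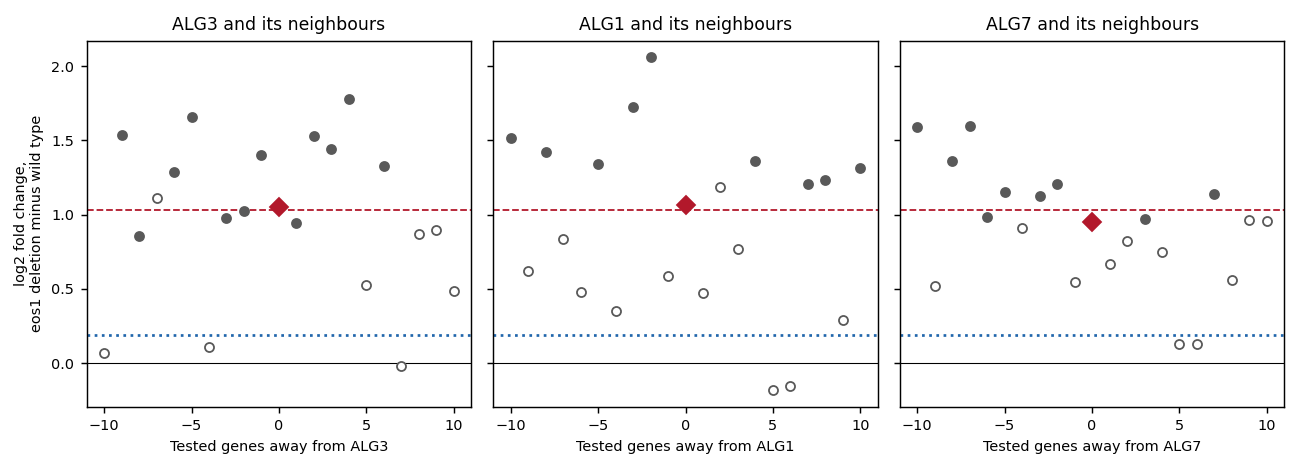
Log2 fold change of the eos1 deletion minus the wild type (vertical axis) for ALG3, ALG1 and ALG7 (red diamonds) and the 10 tested genes on each side in gene order (grey circles, filled where the adjusted p was under 0.05); dashed and dotted lines mark the medians of tested genes on chromosome II (1.03) and elsewhere (0.19). Neighbours scatter around the dashed line, 12, 9 and 9 of 20 of them filled, beside 58.8% of all tested chromosome II genes that rose.

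The genes with the most similar course over the 6 arrays were found by the distance between profiles of log2 signal minus its own mean. For ALG7 they were PEP1, a sorting receptor gene, ARI1 and SEC18, a vesicle fusion gene (distances 0.12, 0.13 and 0.14), for ALG1 RIB7, CSG2 and RTG3 (0.16, 0.16 and 0.17) and for ALG3 TAF5, HPC2 and RNR3 (0.21, 0.26 and 0.27). Of these 9 genes 7 lie on chromosome II, which holds 7.17% of the tested genes. The exceptions are ARI1 and RNR3. All 9 were 0.90 to 1.11 higher in the eos1 deletion than in the wild type on the log2 scale. Chromosome II also holds 207 of the 314 genes called higher there. The distance takes in that rise, so the 7 of 9 is not separate from it. The nearest genes of ALG9 were GCN1, HEM1 and WBP1 (0.06, 0.07 and 0.10) and those of ALG6 were BUD17, SSQ1 and YPL229W (0.08, 0.13 and 0.13). Of the 21 nearest genes of the 7 other ALG genes 0 lie on chromosome II, a count that the same distance shapes.

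The izh2 deletion was compared with the wild type in the same way. Of the 10 ALG genes 0 passed in either direction (limma), and 0 reached an unadjusted p under 0.05. Over all tested genes 0.0% rose and 0.0204% fell, a single gene, IZH2 itself, while 8 genes were higher and 97 lower at an unadjusted p under 0.05. The log2 fold changes ran from -0.25 (ALG11) to 0.29 (DIE2), with a median of -0.001 beside -0.11 for all tested genes. ALG7, ALG1 and ALG3 had -0.10 (95% interval -0.63 to 0.44), -0.20 (-0.74 to 0.34) and 0.16 (-0.43 to 0.75). The groups did not overlap for DIE2, which was higher on both izh2 deletion arrays, and for ALG11, which was lower, as for 5.2% and 22.9% of all tested genes. The 95% intervals of the 10 genes all lay between -0.77 and 0.78.

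The eos1 deletion was also set against the izh2 deletion, a comparison that uses the same eos1 deletion arrays as the one with the wild type. Of the 10 ALG genes 2 were higher in the eos1 deletion and 0 lower (limma), beside 11.9% and 0.713% of all tested genes. ALG1 was 1.27 ± 0.24 (SE) higher on the log2 scale (limma, adjusted p = 0.0074), and ALG7 was 1.05 ± 0.24 (SE) higher (adjusted p = 0.017). ALG3 had 0.89 ± 0.27 (SE) and missed the threshold (adjusted p = 0.053). Without the first izh2 deletion array, on which ALG3 was high, it had 1.23 (adjusted p = 0.048), and without the second it had 0.56 (adjusted p = 0.39). It also passed without the first or second wild-type array (adjusted p = 0.020 and 0.022), which do not enter its value. Without the first eos1 deletion array or the second izh2 deletion array 0 of the 10 passed. The 7 genes off chromosome II had log2 fold changes from 0.03 (ALG8) to 0.52 (ALG6), and 0 of them passed. Both arrays of the eos1 deletion lay above both of the izh2 deletion for 6 of 10 ALG genes, as for 54.6% of all tested genes, and below them for 0, against 6.46%. With arrays centred on the median gene ALG1 alone passed among the 10 (0.92, adjusted p = 0.014), where 6.62% of all tested genes were higher and 3.91% lower. With chromosome II centred apart 0 of the 10 passed in either direction, where 2.77% were higher and 2.59% lower.

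Other genes of N-glycan synthesis and use were compared as 5 lists. Of their 33 genes with a probe set 32 were bright enough to be tested. SRT1 was above background on 6 of 6 arrays but below the cut for testing. In the eos1 deletion 2 of 32 rose and 0 fell against the wild type (limma), RER2 and ROT2, both on chromosome II. RER2 missed the threshold without the second wild-type, the first eos1 deletion or either izh2 deletion array, which left 1 gene called. The count of 2 of 32 (6.25%) is close to the 6.4% of all tested genes that rose, where 0.713% fell. The 3 genes of these lists on chromosome II had log2 fold changes from 0.96 to 1.25, and the 29 others had a median of 0.15 (range -0.25 to 0.51) with 0 passing. RER2, a cis-prenyltransferase that makes dolichol chains, had signals of 1352 and 1025 on the eos1 deletion arrays, 469 and 586 on the izh2 deletion arrays and 635 and 491 on the wild-type arrays (log2 fold change over the wild type 1.08, adjusted p = 0.028). ROT2, the catalytic subunit of glucosidase II, which trims glucose from the transferred glycan, had 2900 and 2867 on the eos1 deletion arrays, 1418 and 1156 on the izh2 deletion arrays and 1114 and 1314 on the wild-type arrays (log2 fold change 1.25, adjusted p = 0.0096).

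Among 4 tested genes of other assembly steps 0 passed. ALG14, the membrane anchor of the enzyme that adds the other N-acetylglucosamine, is on chromosome II and had signals of 1942 and 1569 on the eos1 deletion arrays, 616 and 734 on the izh2 deletion arrays and 1091 and 739 on the wild-type arrays. Its log2 fold change over the wild type was 0.96 (adjusted p = 0.056). ALG13, its catalytic partner on chromosome VII, had 950 and 972 on the eos1 deletion arrays, 532 and 745 on the izh2 deletion arrays and 979 and 624 on the wild-type arrays, a log2 fold change over the wild type of 0.30 (adjusted p = 0.57). The difference between the 2 partners was not tested.

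The counts by list are to be read beside the 6.4% of all tested genes and the 58.8% of those on chromosome II that rose. Of 5 tested genes of dolichol synthesis 1 rose, RER2. On the log2 scale NUS1, a partner of the cis-prenyltransferases, was at 0.43 (adjusted p = 0.32), and CAX4, the dolichol pyrophosphate phosphatase, had 0.26 (adjusted p = 0.54). Of 9 oligosaccharyltransferase genes 0 passed, with a median of 0.16. Its catalytic subunit gene STT3 had 0.33 (adjusted p = 0.44) and OST3 0.34 (adjusted p = 0.46). Of 8 genes for sugar donors 0 passed, with a median of 0.03, and GFA1, the enzyme that starts the synthesis of the N-acetylglucosamine donor, had 0.51 (adjusted p = 0.29), while SEC53, a phosphomannomutase, had -0.13 (adjusted p = 0.59). Of 6 genes of glycan trimming and glycoprotein disposal 1 rose, ROT2. GTB1, the other subunit of glucosidase II and a gene of chromosome IV, had 0.47 (adjusted p = 0.31), and CWH41, glucosidase I, had 0.20 (adjusted p = 0.68). In the izh2 deletion 0 of the 32 genes passed, and their median was -0.14.

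**Figure D5:**
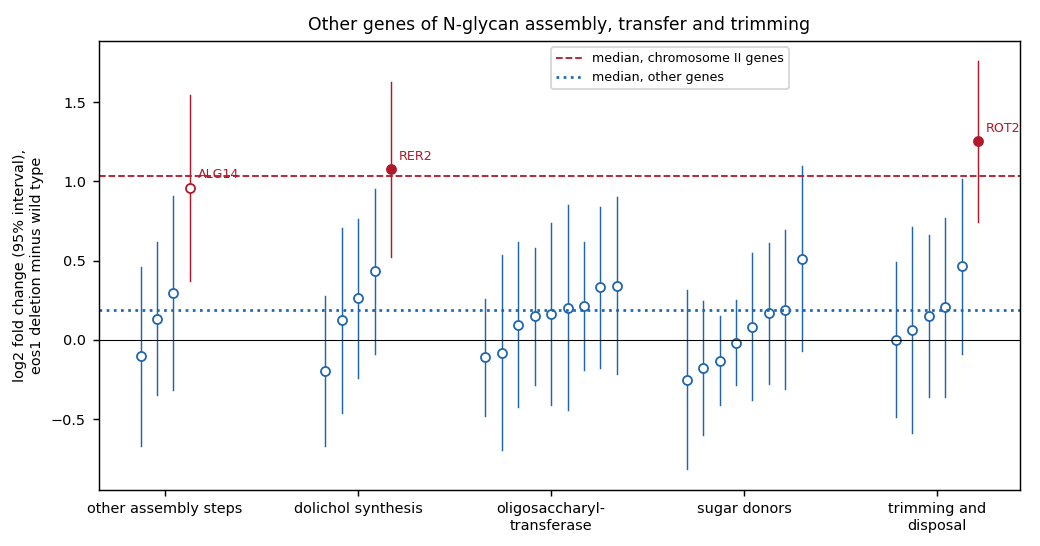
Log2 fold change of the eos1 deletion minus the wild type with its 95% interval (vertical axis) for the 32 other tested genes of N-glycan synthesis and use, by list; red marks chromosome II, filled points passed an adjusted p under 0.05, and dashed and dotted lines mark the medians of tested genes on chromosome II and elsewhere. ALG14, RER2 and ROT2 lie between 0.96 and 1.25, and the other 29 lie between -0.25 and 0.51.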

How the data were processed

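The values analysed are the signal intensities that the authors deposited for 10928 probe sets, 1 per array, on a linear scale. They were made with GCOS, per the submitters' processing notes, and GeneSpring 7.3.1 served for statistics, per the series' design text. The GCOS version and how signals were scaled between arrays are not stated. Through the platform annotation and the R64 gene table, which gave chromosomes and gene order, 5498 probe sets matched 5449 genes. For 47 genes with several probe sets the brightest was used. Signals were floored at 1 and taken to log2. Testing required a mean log2 signal above the 95th percentile of probe sets for no S. cerevisiae gene (91.8 as a signal). These include control probe sets, without which the cut would be 16.4 and 5286 genes would be tested. All 6 arrays entered 1 limma fit (version 3.58.1, R 4.3.3; lmFit, then eBayes with an intensity trend). P values were two-sided and adjusted by Benjamini-Hochberg over 4907 genes, with a threshold of 0.05. They rest on the spread between arrays of a strain, pooled over the 3 strains (3 residual degrees of freedom). That spread is drawn towards the spread of genes of like brightness (7.41 prior degrees of freedom). The 2 arrays per strain, separate experiments per the labels, limit the precision. For the bounds on EOS1 and IZH2 a dim array was set at its background.

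Named genes were the members, the deleted genes, the called genes of 5 lists with up to 2 more per list by p, the neighbours and the 3 genes nearest in profile. The members and lists were chosen with earlier results of these data known. Alternatives covered scaling, floor, filter, variance model, probe sets, samples, genes fitted, pairing and single arrays left out. Data for 4907 genes were simulated for the eos1 deletion against the wild type. The fit recovered 70 of 100 genes changed by 1 and 100 of 100 changed by 2 on the log2 scale. It made 12 false calls among the unchanged genes. The changed genes were drawn at random from the tested genes, as many lowered as raised. The spread of the simulated noise was taken from a fit without the intensity trend. This noise was independent between genes, without a shift shared by an array or a chromosome. For these reasons the rates may not hold for the real arrays.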

Additional observations from a re-analysis of the deposited data

How the results depend on the processing

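With 2 arrays per strain, single arrays decided calls. Leaving out 1 of the 6 in turn lowered the count of ALG genes higher in the eos1 deletion than in the wild type. The counts of other pathway genes and of all tested genes moved down or up with the array left out. Against the izh2 deletion the counts of ALG genes and of all tested genes also moved either way. RER2 was lost without the second wild-type, the first eos1 deletion or either izh2 deletion array. The difference of medians between ALG genes on and off chromosome II stayed between 0.72 and 0.83 for the eos1 deletion over the wild type (0.82 with all), between 0.72 and 0.84 over the izh2 deletion (0.83 with all) and between -0.15 and 0.035 for the izh2 deletion over the wild type (-0.099 with all).

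For the eos1 deletion over the wild type, the 3 ALG calls became 1 with the 2 compared strains alone (ALG3), 1 with median centring, 1 with quantile normalization (ALG1 in both) and 0 with chromosome-wise centring. They became 0 with the stricter filter, which tests 2 ALG genes, and 0 without chromosome II genes, which leaves 7. The 2 other pathway calls became 1 with the compared strains alone (ROT2), 0 with chromosome-wise centring, 0 with the stricter filter and 0 without chromosome II genes. The 2 ALG calls over the izh2 deletion became 1 with median centring, 1 with quantile normalization, and 0 with chromosome-wise centring, the stricter filter or chromosome II left out. Chromosome-wise centring, which removes the chromosome medians, took the difference of medians to -0.035 over the wild type and to -0.075 over the izh2 deletion.

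Log2 fold changes that changed sign passed no test under the alternative. Over the wild type, the eos1 deletion had ALG7 -0.081, ALG2 -0.11 and ALG8 -0.15 with chromosome-wise centring. It had ALG2 -0.17, ALG11 -0.050, ALG9 -0.0012 and ALG8 -0.20 with median centring, and ALG2 -0.22 and ALG8 -0.16 with quantile normalization. For the izh2 deletion over the wild type, ALG7 was at 0.076, 0.022 and 0.050 and ALG12 at 0.12, 0.11 and 0.13 with chromosome-wise centring, median centring and quantile normalization, in that order. For the eos1 deletion over the izh2 deletion and in that order, ALG2 was at -0.094, -0.15 and -0.20, ALG9 at -0.082, -0.13 and -0.11, ALG8 at -0.27, -0.32 and -0.31 and DIE2 at -0.25, -0.30 and -0.30. ALG7 was at -0.16 and ALG3 at -0.31 with chromosome-wise centring, and ALG12 at -0.024 with median centring and -0.00061 with quantile normalization. With single arrays left out, ALG8 ran from -0.22 to 0.28 for the eos1 deletion over the wild type. For the izh2 deletion over the wild type the ranges were -0.33 to 0.14 (ALG7), -0.38 to 0.10 (ALG2), -0.18 to 0.50 (ALG3), -0.20 to 0.23 (ALG9), -0.22 to 0.21 (ALG12), -0.033 to 0.089 (ALG6) and -0.15 to 0.15 (ALG8). For the eos1 deletion over the izh2 deletion they were -0.039 to 0.44 (ALG2), -0.0020 to 0.43 (ALG9), -0.23 to 0.28 (ALG8) and -0.078 to 0.18 (DIE2). The cause was not tested in any of these fits. Those that centre chromosome II apart or drop its genes take out its shift by construction, so they cannot test it.

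Same-numbered arrays deviated together at r = 0.48 for the eos1 deletion with the wild type, 0.089 for the 2 deletions and -0.34 for the izh2 deletion with the wild type (across genes, which are not replicates), so the numbers were not taken to pair the arrays. With the replicate block 3 ALG genes were higher in the eos1 deletion than in the wild type and 3 than in the izh2 deletion, and 377 of all genes rose and 49 fell against the wild type. With the izh2 deletion numbers crossed in that block, added after seeing the data, 3 ALG genes passed in each, and 573 of all genes rose and 61 fell. All-gene counts for the eos1 deletion over the wild type, 314 higher and 35 lower as reported, were 197 and 27 with the compared strains alone, 38 and 72 with chromosome-wise centring, 207 and 110 with median centring, 211 and 96 with quantile normalization, 72 and 23 with the stricter filter and 38 and 21 without chromosome II genes. A filter set without control probe sets, also added after seeing the data, left the ALG calls at 3 and 2. Signal over background did not limit the ALG genes, all of which were above background on 6 of 6 arrays.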
